A study of Mus musculus with 16 samples.

Results

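Genes of the mural cells, the smooth muscle cells and pericytes that wrap blood vessels, were followed in adipose tissue of lean and obese mice. The set held 9 genes: Acta2, Myh11, Tagln, Cnn1, Des, Myl9, Lmod1, Rgs5 and Notch3. They were found by matching the RefSeq accession of each row of the deposited table, with its version removed, to these symbols, which gave 20 of 130343 rows. After rows were summed per gene, these were 9 of 59078 features, and 7 of them were among the 12185 features with a CPM (a count scaled to a common library total) above 1 in at least 3 of 16 libraries. Only these 7 entered the tests.

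The libraries came from 8 male C57BL/6J mice. The 4 lean mice ate a normal laboratory diet and the 4 obese mice a high-fat diet with 42% of its energy from fat and 0.2% cholesterol, both from 10 weeks of age for 12 to 14 months. Each mouse gave 1 library of inguinal subcutaneous adipose tissue (SAT), with the depots of both sides combined, and 1 of mesenteric visceral adipose tissue (VAT), so that the 4 groups of 4 libraries are matched by mouse across tissues. No genetic change is named for any of the groups. VAT was collected from the intact bowel, and the study's methods say that visible vessels were removed from the tissue before RNA was made. Whole tissue was sequenced, so fewer cells of a type cannot be told apart from less RNA per cell.

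Mural cells shorten by sliding myosin filaments along actin filaments, and their contractile genes share a transcription factor, serum response factor (SRF), which works with myocardin and binds a DNA element called the CArG box. Smooth muscle cells surround arteries and veins and carry much of this contractile apparatus, whereas pericytes sit singly on capillaries, contract less and express Rgs5, an inhibitor of G protein signaling. Notch3, a receptor for ligands on the neighbouring endothelium, keeps arterial smooth muscle mature. In adipose tissue, pericytes and perivascular cells are also a known source of adipocyte progenitors.

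The libraries held between 1256082 counts (VAT of lean mouse 1) and 16614407 counts (SAT of obese mouse 3), so that the floor of 3 counts that a count of 0 allows differs widely between them, for counting error only. The lean VAT libraries ranged from 1256082 to 15802634 counts and the obese VAT libraries from 2247737 to 11615347. Scd1, the fatty acid desaturase of adipocytes, took 12.5% to 25.7% of all counts in the obese libraries and 3.28% to 14.0% in the lean ones. Levels below are CPM scaled with TMM factors (trimmed mean of M values), which set the bulk of features equal between libraries. Total counts alone, as an alternative, moved the median log2 fold change of all features between tissues from 0.02 to 0.15 in lean mice and from 0.02 to 0.38 in obese mice, and that of the diet comparison in SAT from -0.00 to -0.20. The share of called features that were higher then went from 54.6% to 70.5%, from 52% to 83.3% and from 54.7% to 20.5%. Of the members called below, each kept its direction and its call under that scaling.

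The tissue labels stood against their markers as follows. The adipocyte markers, 10 of 10 tested, summed to between 33605 and 106247 CPM in every library. The mesothelial markers (the lining of the abdominal cavity), all 8 of them, summed to between 251 and 607 CPM in the VAT libraries and to at most 1.41 CPM in those of SAT, and Wt1, Msln and Upk1b were at 0 in the SAT libraries. Of the 10 endothelial markers, the table listed Pecam1 at 0 in all 16 libraries, while Tie1 reached up to 205 CPM, Kdr up to 130.5 CPM, Vwf up to 25.7 CPM and Cdh5 up to 4.66 CPM. Pdgfrb, a defining pericyte receptor, stayed at or below 1.33 CPM in every library, and the pericyte markers Kcnj8, Higd1b and Mcam were at 0 in all of them. Reads were counted per transcript, and how reads shared by transcripts of 1 gene were treated is not given in the sources used here, so a low count of a gene with several rows is not read here as low expression.

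That limit touches several members directly. Myh11, the smooth muscle myosin heavy chain and the most specific marker of the contractile cell, has 5 rows in the table, and these held 2 counts over all 16 libraries, 1 in SAT of lean mouse 1 and 1 in VAT of obese mouse 4. Cnn1, calponin, an actin-binding protein that restrains actomyosin, has 3 rows with 5 counts in all, at most 2 in any library. Notch3 has 3 rows and 129 counts, all of them on XM_030249555, and was above 1 CPM in 5 libraries. By contrast Des, Tagln and Lmod1 have 1 row each, with 8180, 3120 and 2308 counts. Acta2 has 2 rows with 40143 counts, of which 94.2% fell on NM_007392. Rgs5 has 2 rows with 198190 counts, of which 99.97% fell on NM_009063. Myl9 has 2 rows with 1074 counts, of which 65.7% fell on XM_006500453. Because of this counting, no order of level between different members was drawn.

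On the genome build GRCm39 (GENCODE annotation), Rgs5 lies at chr1:169483036-169524887 on the plus strand, Lmod1 at chr1:135252509-135295907 (plus), Des at chr1:75320511-75345223 (plus), Myl9 at chr2:156617084-156623579 (plus) and Acta2 at chr19:34217737-34232990 (minus). Tagln lies at chr9:45840909-45847404 (minus), Cnn1 at chr9:22010512-22020926 (plus), Myh11 at chr16:14012399-14109236 (minus) and Notch3 at chr17:32339794-32385893 (minus). Exons of 6 members overlap a gene on the opposite strand. The overlap covers 60.7% of the exonic bases of Tagln with Gm48529, 35.1% of those of Cnn1 with Elof1, and 9.33% or less for Acta2 (Stambpl1), Notch3 (Gm17276), Myl9 (5730471H19Rik), Des (Gm15179) and Tagln with Pcsk7. The libraries were directional, but the strand setting of the counting is not given in the sources used here, so reads of these pairs could not be told apart with certainty. Rgs5, Lmod1 and Myh11 share no exonic base with another gene.

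The start regions of the members that differed between tissues (Rgs5, Des and Lmod1) are shown beside those of Acta2 and Myl9, which did not pass the test, because SRF is the best known regulator of this gene set. Each is the 250 bases before the RefSeq start, 5′ to 3′ on the gene's strand, from RefSeq (GRCm38.p6), and each matched the GRCm39 genome exactly and at 1 place. Capitals mark matches to the CArG box, to the CArG box with 1 of its middle bases changed, and to TGGGAA, searched on both strands.
Rgs5 (chr1:169482820-169483069, plus): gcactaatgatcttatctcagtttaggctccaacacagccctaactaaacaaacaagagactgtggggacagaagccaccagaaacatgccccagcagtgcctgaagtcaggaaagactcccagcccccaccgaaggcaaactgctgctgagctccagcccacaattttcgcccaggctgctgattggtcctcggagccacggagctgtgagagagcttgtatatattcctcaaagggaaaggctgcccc
Des (chr1:75336686-75336935, plus): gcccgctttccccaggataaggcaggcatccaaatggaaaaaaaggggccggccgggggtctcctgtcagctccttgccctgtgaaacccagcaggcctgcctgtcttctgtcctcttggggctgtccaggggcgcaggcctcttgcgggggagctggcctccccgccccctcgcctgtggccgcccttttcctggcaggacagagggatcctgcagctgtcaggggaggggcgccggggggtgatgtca
Lmod1 (chr1:135252301-135252550, plus): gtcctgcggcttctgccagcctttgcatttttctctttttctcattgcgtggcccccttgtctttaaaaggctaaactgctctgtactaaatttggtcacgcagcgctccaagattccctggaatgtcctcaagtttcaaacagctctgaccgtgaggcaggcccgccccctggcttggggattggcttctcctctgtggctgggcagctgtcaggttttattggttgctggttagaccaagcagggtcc
Acta2 (chr19:34232774-34233023, minus): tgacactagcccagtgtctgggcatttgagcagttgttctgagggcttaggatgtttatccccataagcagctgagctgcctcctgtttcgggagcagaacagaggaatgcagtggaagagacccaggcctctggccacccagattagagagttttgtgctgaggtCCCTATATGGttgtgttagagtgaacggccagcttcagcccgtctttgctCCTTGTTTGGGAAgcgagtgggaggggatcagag
Myl9 (chr2:156617134-156617383, plus): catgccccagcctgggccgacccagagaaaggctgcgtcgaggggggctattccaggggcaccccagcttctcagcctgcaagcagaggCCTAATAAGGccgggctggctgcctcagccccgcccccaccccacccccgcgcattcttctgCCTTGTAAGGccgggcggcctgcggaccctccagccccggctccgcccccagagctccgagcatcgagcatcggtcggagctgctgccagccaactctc

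The Acta2 region held CCCTATATGG with its first base at -84 from the start and CCTTGTTTGG at -34, both CArG boxes with 1 middle base changed, and TGGGAA at -27, which overlaps the second. The Myl9 region held a full CArG box, CCTAATAAGG, at -161 and a changed one, CCTTGTAAGG, at -99. Among 32851 mouse promoter windows of this length, 1.467% held a full CArG box, 7.245% one with a changed base and 21.594% held TGGGAA. No such match stood in the windows of Rgs5, Des, Lmod1, Cnn1 or Notch3, which says only that these letters are not in this window. Windows of Tagln and Myh11 were not analysed here.

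The first question was which members differ between VAT and SAT of the same mice. Rgs5 was lower, and Des and Lmod1 were higher, in VAT than in SAT, in lean and in obese mice alike. Rgs5 in VAT was at 0.449 of its SAT level in lean mice and 0.463 in obese mice, whereas Des was 2.22-fold and 2.25-fold higher and Lmod1 1.93-fold and 1.74-fold higher. The other 4 tested members, Acta2, Tagln, Myl9 and Notch3, did not pass the test in either diet group. In lean mice 3 of 7 members were called (edgeR quasi-likelihood test with the mouse as a block, Benjamini-Hochberg adjusted p below 0.05), against 15.9% of all features tested. The 2 called higher in VAT stand against 8.67% of features and the 1 called lower against 7.22%. In obese mice 3 of 7 members were called, against 31.4% of all features. There the 2 called higher stand against 16.3% and the 1 called lower against 15.1%. None of the members passed the study's limit of a log2 fold change beyond 1.5. DESeq2 and limma voom also called 3 members in each diet group, with their shares over all features not given here.

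**Figure D1:**
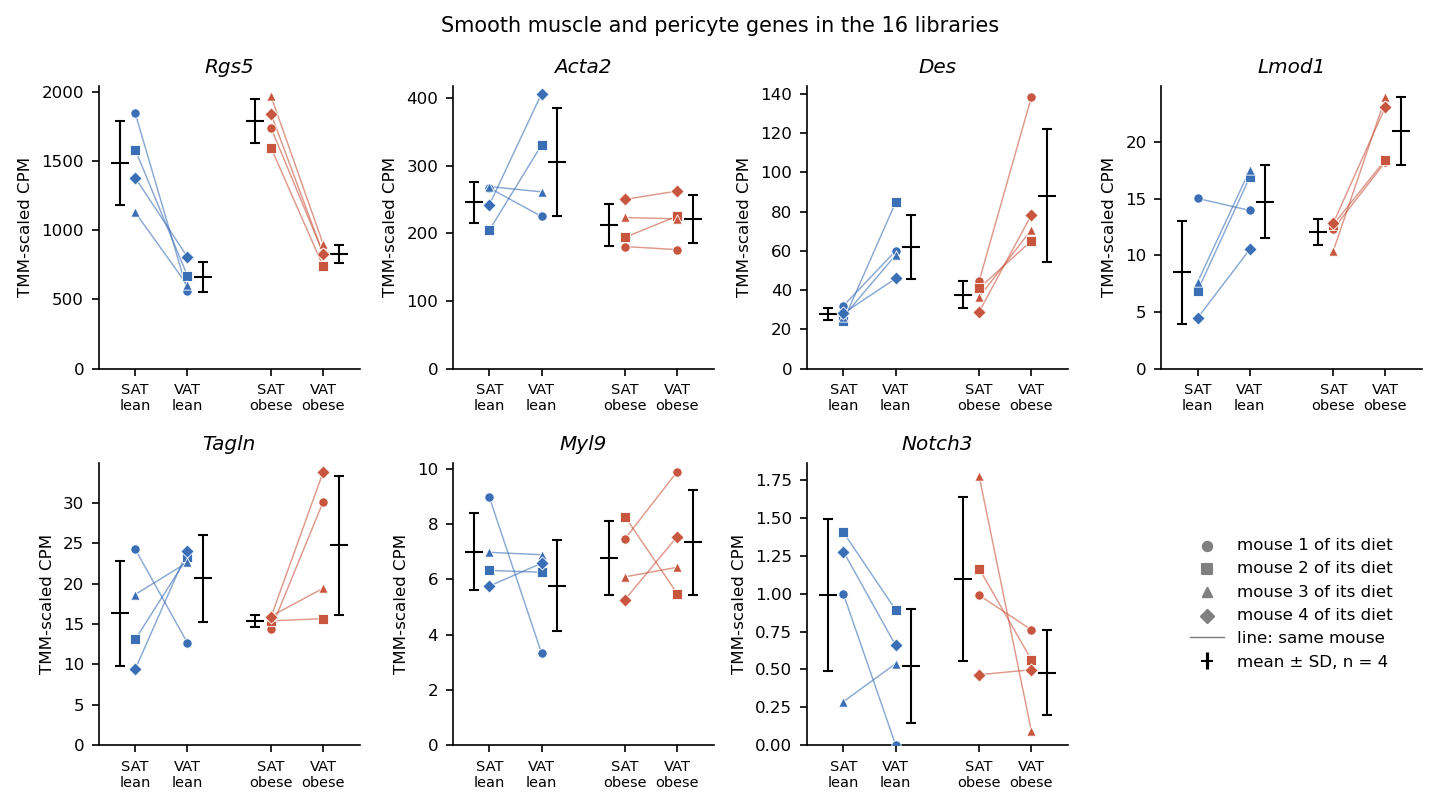
TMM-scaled CPM (vertical axes, each from 0) of the 7 tested genes in SAT and VAT of lean mice (blue) and obese mice (red). Marks are libraries, lines join both tissues of a mouse, and black bars give the mean ± SD of 4 libraries. Rgs5 fell from SAT to VAT in all 8 mice, and Des rose in all 8.

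Rgs5, the pericyte gene and regulator of G protein signaling that dampens responses to vasoconstrictors, was measured most deeply, with at least 842 counts in every library. In SAT its level was 1844, 1581, 1128 and 1378 CPM in lean mice 1 to 4 and 1740, 1596, 1969 and 1841 CPM in obese mice 1 to 4. In VAT it was 561, 670.0, 602 and 806 CPM in the lean mice and 834, 740.0, 901 and 829.9 CPM in the obese mice. All 8 SAT libraries were above all 8 VAT libraries, with a gap between the highest VAT library (901) and the lowest SAT library (1128). The log2 fold change of VAT against SAT was -1.15 (SE 0.12, adjusted p = 5.68e-07, edgeR) in lean mice and -1.11 (SE 0.12, adjusted p = 5.19e-07, edgeR) in obese mice.

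Des encodes desmin, the intermediate filament that ties contractile units to one another in all muscle types. In SAT its level was 32.0, 24.3, 26.5 and 28.1 CPM in lean mice 1 to 4 and 44.6, 40.9, 36.4 and 28.9 CPM in obese mice 1 to 4. In VAT it was 59.9, 84.7, 57.8 and 45.9 CPM in the lean mice and 138, 65.0, 70.7 and 78.2 CPM in the obese mice. VAT was above SAT in each of the 8 mice, and the libraries of the tissues did not overlap within either diet. The log2 fold change was 1.15 (SE 0.17, adjusted p = 6.82e-05, edgeR) in lean mice and 1.17 (SE 0.17, adjusted p = 1.62e-05, edgeR) in obese mice.

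The highest Des library of each VAT group was also the highest for Actg2, the smooth muscle actin of the gut wall. Actg2 was at 68.5 CPM in VAT of lean mouse 2 and 82.3 CPM in VAT of obese mouse 1, against 2.58 to 15.5 CPM in the other VAT libraries and 0 to 1.26 CPM in SAT. The intestinal muscle and enteric neuron markers, 10 genes with Elavl4 and Vip at 0 throughout, summed to 84.2 and 97.9 CPM in those VAT libraries, 20.9 to 30.9 CPM in the other VAT libraries and 38.6 to 79.1 CPM in SAT, where Ret made up most of the sum. With both of these mice left out, an alternative chosen after seeing the data, the log2 fold change of Des was 0.92 in lean mice (adjusted p = 0.0011, edgeR) and 1.02 in obese mice (adjusted p = 0.00013, edgeR). Rgs5 and Lmod1 also stayed called in both diets with these mice left out, Lmod1 in lean mice at an adjusted p of 0.0488 (edgeR).

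Lmod1, leiomodin, nucleates actin filaments in smooth muscle. Its level in SAT was 15.0, 6.89, 7.65 and 4.48 CPM in lean mice 1 to 4 and 12.3, 12.7, 10.4 and 12.9 CPM in obese mice 1 to 4. In VAT it was 14.0, 16.9, 17.6 and 10.5 CPM in the lean mice and 18.3, 18.5, 24.0 and 23.1 CPM in the obese mice. VAT was above SAT in 3 of 4 lean mice, lean mouse 1 being the exception, and in 4 of 4 obese mice, where the tissues did not overlap. The log2 fold change was 0.95 (SE 0.22, adjusted p = 0.0045, edgeR) in lean mice and 0.80 (SE 0.20, adjusted p = 0.0037, edgeR) in obese mice. The lean call was lost without lean mouse 2 (0.80, adjusted p = 0.0540) or lean mouse 3 (0.83, adjusted p = 0.0536) and with no block for the mouse (0.75, adjusted p = 0.0537).

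Acta2, the smooth muscle actin most used to mark contractile mural cells and myofibroblasts, was at 267, 205, 269 and 242 CPM in SAT and 225, 331, 261 and 407 CPM in VAT of lean mice 1 to 4. In obese mice 1 to 4 it was at 181, 194, 224 and 250.3 CPM in SAT and 176, 226, 221 and 263 CPM in VAT. On the row NM_007392 alone, VAT was higher in 2 of 4 lean and 4 of 4 obese mice, with overlap in both diets. Its log2 fold change in obese mice was 0.14 (adjusted p = 0.492, edgeR). Summed over both rows, VAT was the higher tissue in 2 of 4 mice of each diet, and the groups overlapped. The log2 fold change of VAT against SAT was 0.30 in lean mice (95% interval 0.01 to 0.58, adjusted p = 0.158, edgeR) and 0.06 in obese mice (-0.22 to 0.34, adjusted p = 0.778, edgeR). Without lean mouse 1 the lean value was 0.47 (adjusted p = 0.0256, edgeR), and with total counts in place of TMM factors it was 0.43 in lean mice (adjusted p = 0.0290) and 0.42 in obese mice (adjusted p = 0.0144).

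Tagln (transgelin, SM22), an actin-bundling protein of early smooth muscle, was at 24.3, 13.1, 18.6 and 9.38 CPM in SAT and 12.7, 23.2, 22.6 and 24.0 CPM in VAT of lean mice 1 to 4. In obese mice 1 to 4 it was at 14.3, 15.4, 15.9 and 15.8 CPM in SAT and 30.1, 15.6, 19.4 and 33.8 CPM in VAT. VAT was the higher tissue in 3 of 4 lean mice and in 4 of 4 obese mice, with overlap in both diets. The log2 fold change was 0.46 in lean mice (SE 0.25, adjusted p = 0.253, edgeR) and 0.61 in obese mice (SE 0.24, adjusted p = 0.0556, edgeR). The obese value lay close to the threshold and crossed it under several alternatives, with total counts only (0.98, adjusted p = 0.0051) the furthest, and Tagln passed in lean mice without lean mouse 1 (0.78, adjusted p = 0.0297).

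Myl9, the regulatory light chain whose phosphorylation starts contraction, ranged from 5.27 to 8.97 CPM in SAT and from 3.33 to 9.90 CPM in VAT. Its log2 fold change of VAT against SAT was -0.16 (95% interval -0.70 to 0.37) in lean mice and 0.09 (-0.40 to 0.59) in obese mice. The lowest library, VAT of lean mouse 1, rests on 5 counts. Notch3 was between 0.287 and 1.78 CPM in SAT and between 0 and 0.894 CPM in VAT, with at most 26 counts in a library. Its log2 fold change was -0.57 (-1.99 to 0.85) in lean mice and -1.25 (-2.61 to 0.11) in obese mice, so that at this depth a several-fold difference could not be told from none.

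**Figure D2:**
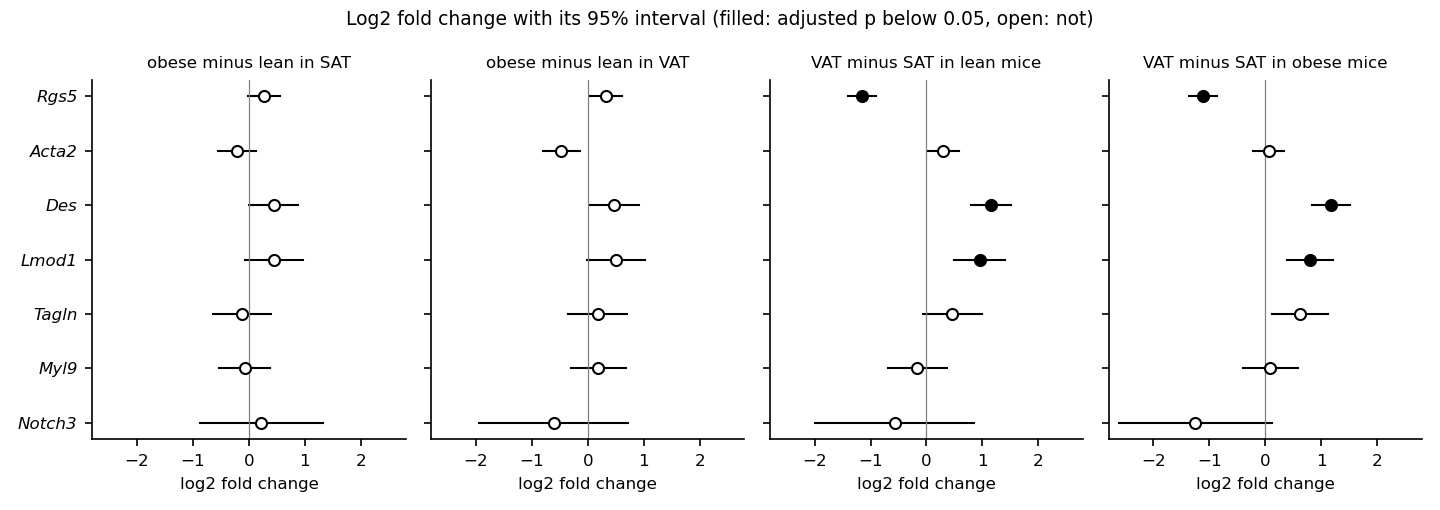
Log2 fold change (horizontal axis) of the 7 tested genes in 4 comparisons, with bars for the 95% interval. Filled marks have an adjusted p below 0.05 and open marks do not. Rgs5, Des and Lmod1 were called in both comparisons of tissues, and none of the genes in either comparison of diets.

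The second question was whether the high-fat diet moves these genes within a tissue. In SAT 0 of 7 members were called, against 11.6% of all features tested in edgeR and 6.35% called higher in obese mice. At an unadjusted p below 0.05 there were also 0, and DESeq2 and limma voom called 0. The log2 fold changes of obese against lean SAT lay between -0.21 (Acta2) and 0.45 (Lmod1), with a median of 0.22 beside -0.00 over all features. The largest estimates were those of Lmod1, at 8.51 ± 4.56 CPM (SD, n = 4) in lean and 12.1 ± 1.14 CPM in obese SAT (0.45, 95% interval -0.07 to 0.97), and Des, at 27.7 ± 3.24 and 37.7 ± 6.76 CPM (0.44, -0.00 to 0.88). Lmod1 was called without lean mouse 1, whose SAT library was the highest of the lean ones (0.89, adjusted p = 0.0110, edgeR). Rgs5 was at 1483 ± 304 CPM in lean and 1787 ± 158 CPM in obese SAT (0.27, -0.01 to 0.55).

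In VAT 0 of 7 members were called, against 12.2% of all features and 6.89% called higher in obese mice. At an unadjusted p below 0.05 there were 3 (Acta2, Des and Rgs5), DESeq2 called 0 and limma voom called 1, Acta2. Shares of all features for these counts are not given here, so nothing is read from them. The estimates did not share 1 direction. Acta2 was at 306 ± 80.1 CPM (SD, n = 4) in lean and 221 ± 35.5 CPM in obese VAT, a log2 fold change of -0.47 (95% interval -0.80 to -0.14, adjusted p = 0.0599, edgeR). It passed the threshold with legacy=FALSE (-0.47, adjusted p = 0.0499), with no filter (-0.49, adjusted p = 0.0186), with limma voom (-0.47, adjusted p = 0.0424), with replicate number as a block (-0.46, adjusted p = 0.0255) and without lean mouse 1 (-0.58, adjusted p = 0.0163). Over the alternatives that left out 1 mouse each, its value ran from -0.58 to -0.28.

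Lmod1 was at 14.7 ± 3.21 CPM (SD, n = 4) in lean and 21.0 ± 3.01 CPM in obese VAT, with no overlap of the libraries (0.50, 95% interval -0.01 to 1.02, adjusted p = 0.214, edgeR). Des was at 62.1 ± 16.3 and 88.1 ± 33.9 CPM (0.47, 0.04 to 0.91, adjusted p = 0.160, edgeR) and passed without lean mouse 2 (0.70, adjusted p = 0.0468). Rgs5 was at 660 ± 108 and 826 ± 66.2 CPM (0.32, 0.04 to 0.61, adjusted p = 0.138, edgeR) and passed without lean mouse 4 (0.46, adjusted p = 0.0491). The values of Tagln (0.18), Myl9 (0.19) and Notch3 (-0.61) had intervals on both sides of 0. The diet response differed between VAT and SAT for 0 of 7 members (edgeR with the mouse as a block, 2.47% of all features), with 0 at an unadjusted p below 0.05 and 0 with DESeq2 and limma voom. The differences of the log2 fold changes lay between -0.68 (Notch3) and 0.25 (Myl9).

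Counts of 2 genes within 1 library do not depend on that library's scaling, so the members were also set against Acta2 as log2 ratios, chosen after seeing the data. The ratio of Rgs5 to Acta2 was lower in VAT than in SAT in 8 of 8 mice and that of Lmod1 higher in 8 of 8, though none of these differences passed after adjustment. The ratio of Rgs5 to Acta2 was 2.58 ± 0.39 (log2, SD, n = 4) in SAT and 1.13 ± 0.16 in VAT of lean mice, and 3.08 ± 0.16 and 1.91 ± 0.27 in obese mice. The mean difference of VAT against SAT was -1.31 ± 0.33 (SD, n = 8 mice, exact permutation p = 0.0078, the smallest that 8 pairs allow, adjusted p = 0.0820 over 21 such tests). The corresponding difference was 0.67 ± 0.39 for Lmod1 (exact permutation p = 0.0078, adjusted p = 0.0820) and 0.98 ± 0.54 for Des, which was higher in VAT in 7 of 8 mice (exact permutation p = 0.0156, adjusted p = 0.0857).

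Within VAT, in obese mice the log2 ratio to Acta2 was higher than in lean VAT by 0.78 for Rgs5, 0.92 for Des and 0.97 for Lmod1, with no overlap between the 4 lean and 4 obese libraries for any of them. The exact permutation p was 0.0286 for each, the smallest that 4 against 4 allows, and 0.0857 after adjustment over the 21 tests, which is above the threshold. From that floor a comparison of diets could pass only if many of the 21 tests were as low, so not passing decides little. The 3 ratios share Acta2 as denominator, so they are not independent of one another. The log2 ratios of Tagln and Myl9 to Acta2 were higher in obese than in lean VAT by 0.68 and 0.81 (exact permutation p = 0.0857 and 0.0571). In SAT the ratio was higher in obese mice by 0.50 for Rgs5, 0.65 for Des and 0.86 for Lmod1 (exact permutation p = 0.0571, 0.114 and 0.0857, adjusted p = 0.120, 0.185 and 0.15), none of which passed the test.

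**Figure D3:**
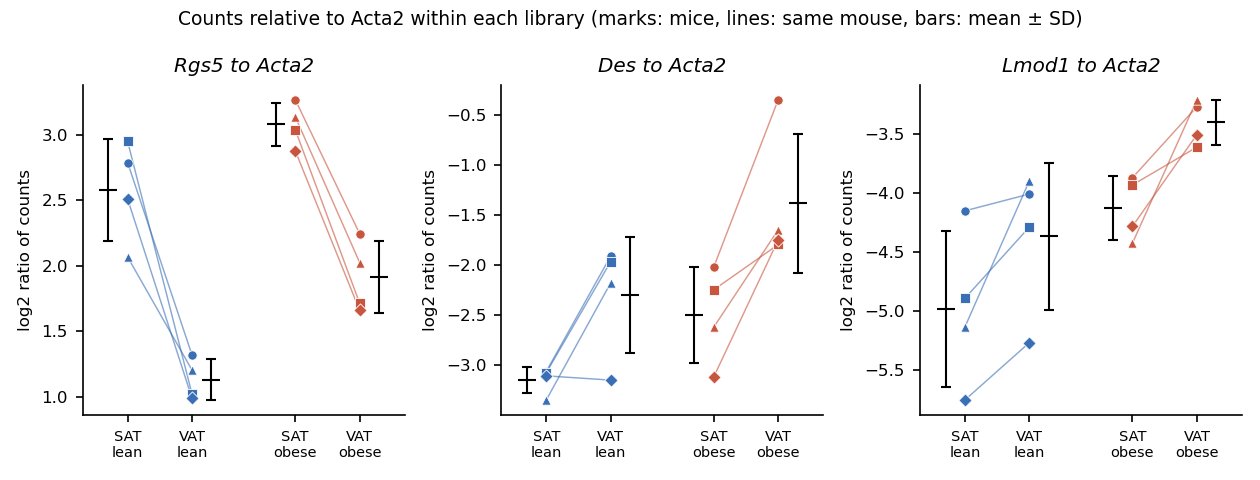
Log2 ratio of the counts of Rgs5, Des and Lmod1 to those of Acta2 (vertical axes) in each library. Blue marks are lean mice, red marks obese mice, lines join both tissues of a mouse, and bars give the mean ± SD of 4 libraries. The obese VAT libraries lie above the lean VAT libraries for all 3 ratios.

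The rows of Acta2 were also tested one by one, an addition made after seeing the data. XM_006526606, a RefSeq model transcript with 2315 of the Acta2 counts, was higher in obese than in lean SAT, while NM_007392, which holds the rest, did not pass the test. In SAT, XM_006526606 was at 13.5, 8.85, 7.36 and 10.0 CPM in lean mice 1 to 4 and at 18.6, 22.7, 18.2 and 18.0 CPM in obese mice 1 to 4, with no overlap. In VAT it was at 14.6, 11.9, 9.48 and 21.4 CPM in the lean mice and 11.4, 15.6, 13.5 and 11.4 CPM in the obese mice, with overlap. The log2 fold change in SAT was 0.96 (SE 0.22, adjusted p = 0.0065, edgeR over 13288 rows, of which 11.0% were called), and -0.28 for NM_007392 (adjusted p = 0.312). The row stayed called in SAT under every alternative run for it, with values from 0.83 to 1.16 when 1 mouse was left out. In VAT its value was -0.08 (adjusted p = 0.886).

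The diet response of XM_006526606 differed between the tissues (VAT minus SAT -1.06, SE 0.26, adjusted p = 0.0302, edgeR, 2.17% of rows called), a call that was lost with limma voom, with no replicate block, with total counts only and without any of lean mice 2, 3 and 4 and obese mice 3 and 4. In obese mice the row was lower in VAT than in SAT in 4 of 4 mice (-0.54, SE 0.17, adjusted p = 0.0211, edgeR), whereas in lean mice it was above SAT in 4 of 4 (0.51, SE 0.19, adjusted p = 0.0701). As a share of the Acta2 counts it made up 4.06 ± 0.96% (SD, n = 4) in lean and 9.33 ± 2.04% in obese SAT, and 4.75 ± 1.41% and 5.97 ± 1.12% in VAT. The shares of lean and obese SAT did not overlap (2.73% to 5.04% against 7.18% to 11.7%, exact permutation p = 0.0286, the smallest possible for these group sizes, adjusted p = 0.0857 over 21 tests). The share of the Myl9 counts on NM_172118 was 35.0 ± 10.5% in lean and 27.9 ± 3.17% in obese SAT (exact permutation p = 0.286, n = 4). Which bases set the Acta2 rows apart, and whether reads of Stambpl1 on the other strand reached either of them, was not tested.

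**Figure D4:**
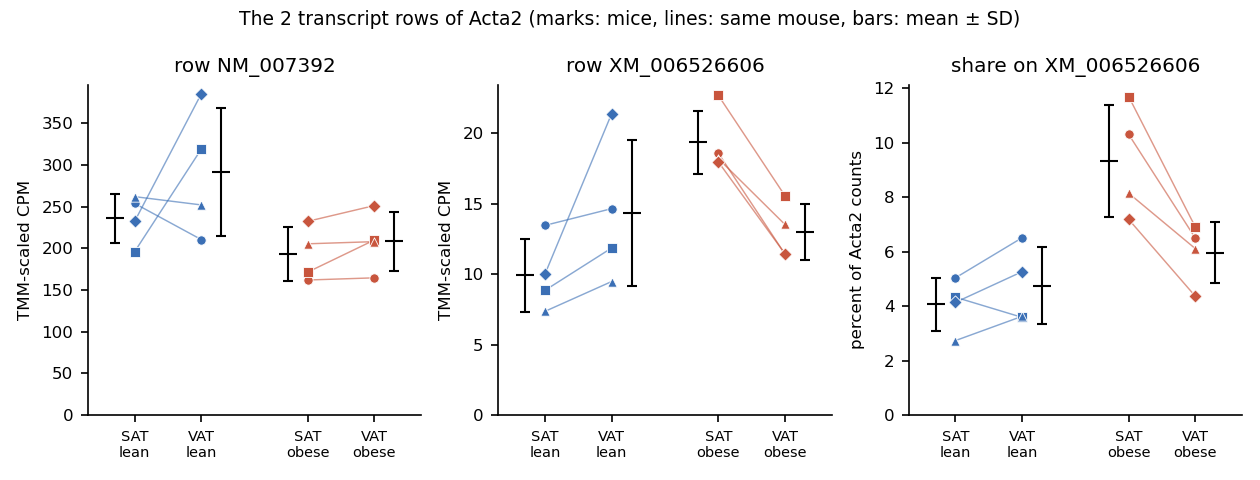
The rows of Acta2 in SAT and VAT of lean mice (blue) and obese mice (red), as TMM-scaled CPM for NM_007392 (left) and XM_006526606 (middle) and as the percent of all Acta2 counts on XM_006526606 (right). Bars give the mean ± SD of 4 libraries. On the right the obese SAT libraries (7.18% to 11.7%) lie above the lean SAT libraries (2.73% to 5.04%).

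Genes that work with the members were taken from 5 lists. Their counts stand against the shares of all features called, which were 15.9% between tissues in lean mice (8.67% higher and 7.22% lower in VAT), 31.4% in obese mice (16.3% and 15.1%), 11.6% with diet in SAT, 12.2% with diet in VAT and 2.47% for the difference between diet responses. With 6 to 12 genes tested per list, nothing is read from these counts about a list as a whole. Of the 20 contractile and cytoskeletal genes, 12 were tested, and between tissues 3 were higher in VAT in both diets and 1 (lean mice) or 2 (obese mice) were lower. Actg2 rose from 0.524 ± 0.630 CPM (SD, n = 4) in SAT to 23.0 ± 30.8 CPM in VAT of lean mice (log2 fold change 5.20, adjusted p = 5.47e-06, edgeR) and by 4.45 in obese mice. Over the alternatives its value ran from 4.66 to 6.25 in lean mice, where the call was lost with limma voom, and from 3.10 to 5.16 in obese mice, where it was lowest with lean mouse 2 and obese mouse 1, the highest Actg2 libraries in VAT, left out. Pdlim3, a scaffold protein of the Z-disc, was higher in VAT by 3.64 and 2.70 on the log2 scale, and Tpm2, a tropomyosin, by 1.84 and 1.66. Synpo2, an actin-binding protein of smooth muscle, was lower in VAT of lean mice (-0.89, adjusted p = 0.00097, edgeR), and Synm, an intermediate filament protein that binds desmin, was lower in VAT of obese mice (-0.77, adjusted p = 0.0239, edgeR), a call lost with total counts only and without obese mouse 2, 3 or 4. The median log2 fold change of the list was 0.17 in lean and 0.09 in obese mice, beside 0.02 over all features.

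Under the diet, 2 contractile genes were lower in obese SAT and 0 higher, and 0 of 12 were called in VAT. Synpo2 fell in SAT from 1147 ± 282 to 647 ± 132 CPM (SD, n = 4, log2 fold change -0.83, adjusted p = 0.0268, edgeR), a call lost without obese mouse 1, 3 or 4. Myl6, the essential light chain of smooth and non-muscle myosin, fell from 39.3 ± 1.86 to 25.4 ± 3.35 CPM (-0.63, adjusted p = 0.0282, edgeR), lost without lean mouse 2 or 3 or obese mouse 2 or 4. Myocd, the cofactor myocardin, was under the filter with at most 3 counts in a group, and Srf itself (1.03 to 1.93 CPM as group means) was not called in any comparison.

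Of the 10 SRF and myocardin regulators, 8 were tested, with 1 called higher and 1 lower in VAT in each diet. Foxf1, a forkhead factor of gut and visceral mesenchyme, rose from 0.353 ± 0.246 to 13.4 ± 2.19 CPM in lean mice (5.09, adjusted p = 7.26e-10, edgeR) and by 4.83 in obese mice. Tbx18, a T-box factor of mural cells and their precursors, went the other way, from 16.1 ± 3.29 CPM in SAT to 2.84 ± 0.732 CPM in VAT of lean mice (-2.51, adjusted p = 9.18e-08, edgeR) and by -3.62 in obese mice. For both genes the SAT and VAT libraries did not overlap. Mrtfb, a myocardin-related SRF cofactor, was the 1 gene called with diet, from 1.46 ± 0.741 to 4.58 ± 2.09 CPM in SAT (1.60, adjusted p = 0.0076, edgeR). Its lean and obese SAT libraries overlapped.

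**Figure D5:**
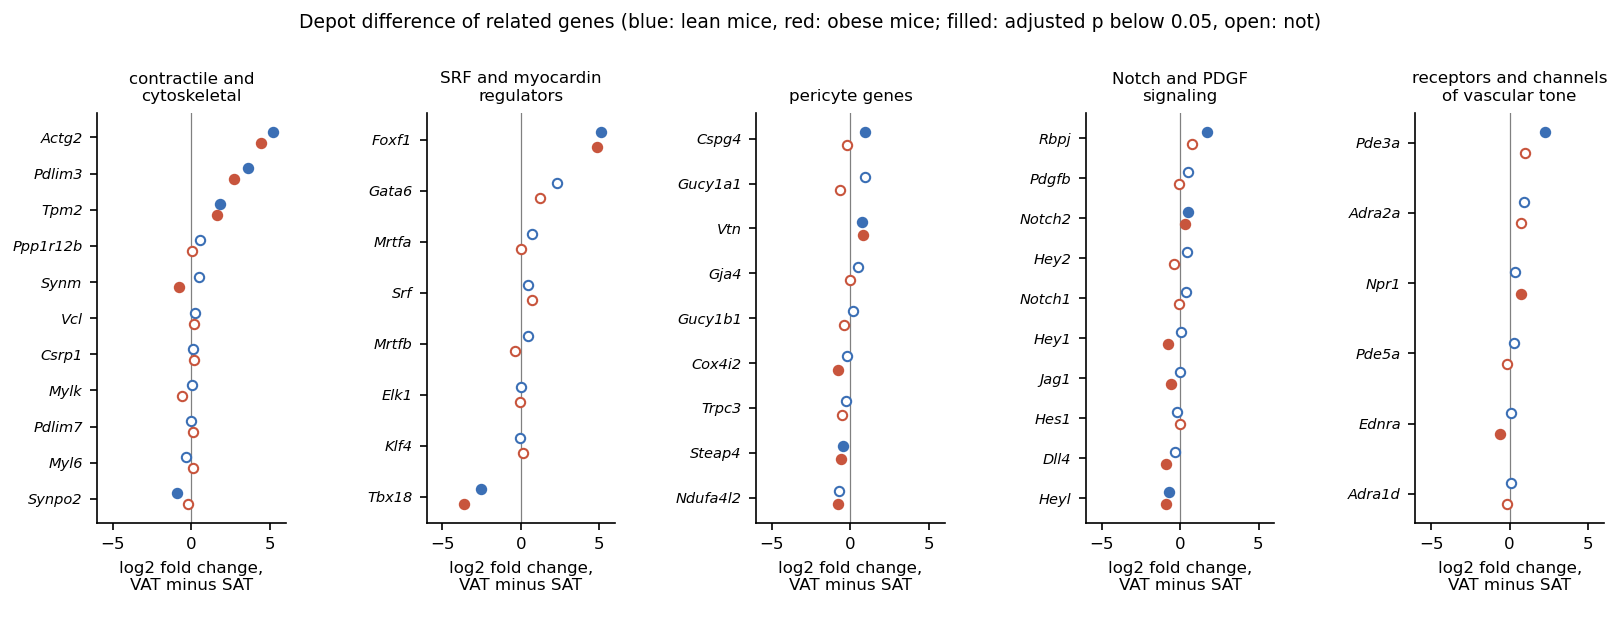
Log2 fold change of VAT against SAT (horizontal axes) for tested genes of 5 lists (11 of the 12 contractile genes are drawn), in lean mice (blue) and obese mice (red). Filled marks have an adjusted p below 0.05 and open marks do not. Actg2, Pdlim3, Tpm2 and Foxf1 stand to the right and Tbx18 to the left in both diets.

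Of the 15 pericyte genes, 9 were tested. Between tissues, 2 were higher and 1 lower in VAT of lean mice, and 1 was higher and 3 lower in VAT of obese mice. Vtn, the matrix protein vitronectin, was higher in VAT by 0.76 in lean mice (lost without lean mouse 3) and 0.82 in obese mice. Steap4, a metalloreductase that pericytes share with adipocytes, was lower by -0.51 and -0.58, the obese call being lost with total counts only. Cspg4 (NG2), a proteoglycan of pericytes, was higher in VAT of lean mice (58.5 ± 17.4 against 112 ± 44.4 CPM, 0.90, adjusted p = 0.0028, edgeR). Cox4i2 and Ndufa4l2, mitochondrial subunits enriched in pericytes, were lower in VAT of obese mice by -0.80 and -0.83, and both calls were lost without obese mouse 1, 2 or 3 and with total counts only.

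With the diet, 3 pericyte genes rose and 1 fell in SAT. Gucy1a1, the nitric oxide receptor subunit, rose from 1.82 ± 0.483 to 4.13 ± 0.770 CPM (SD, n = 4, 1.17, adjusted p = 0.0043, edgeR). Gja4, connexin 37, rose by 0.77 (adjusted p = 0.0165), a call lost with total counts only and without lean mouse 2 or obese mouse 1 or 2. Cspg4 rose by 0.91 (adjusted p = 0.0379), lost with total counts only and without lean mouse 1, 2 or 3 or obese mouse 1 or 2. Steap4 fell by 0.60 in SAT and by 0.69 in VAT (adjusted p = 0.0089 and 0.0031, edgeR), where it was the 1 pericyte gene called. The diet response of Cspg4 differed between tissues (-1.10, adjusted p = 0.0357, edgeR), but this held in 7 of 17 alternatives.

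Of the 13 genes of Notch and PDGF signaling to mural cells, 10 were tested. Heyl, a Notch target of mural cells, was lower in VAT by -0.71 in lean and -0.92 in obese mice (adjusted p = 0.0031 and 0.00011, edgeR), with no overlap of libraries in either diet. Notch2, a receptor, was higher in VAT by 0.51 and 0.33, and Rbpj, the DNA-binding factor of the pathway, by 1.71 in lean mice. The obese call of Notch2 was lost with no filter and without obese mouse 2 or 4, and that of Rbpj without lean mouse 2 or 4. The ligands Dll4 and Jag1 and the target Hey1 were lower in VAT of obese mice by -0.91, -0.58 and -0.77. All of these were lost with total counts only, Dll4 also without obese mouse 2, Jag1 without obese mouse 2, 3 or 4, and Hey1 held in 7 of 17 alternatives. With the diet, Rbpj (1.87, adjusted p = 0.0057), Notch2 (0.43, adjusted p = 0.0181) and Hey1 (0.87, adjusted p = 0.0434, edgeR) rose in SAT and 0 of 10 were called in VAT. The call of Notch2 in SAT was lost without lean mouse 4 or obese mouse 1, and that of Hey1 without lean mouse 2 or 4 or obese mouse 1, 2 or 3, both also with total counts only.

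Of the 17 receptors and channels of vascular tone, 6 were tested. Ednra, the endothelin receptor of smooth muscle, fell with the diet in VAT from 77.8 ± 24.0 to 43.7 ± 7.71 CPM (SD, n = 4, -0.86, adjusted p = 0.0039, edgeR), and this call held in 17 of 18 alternatives. Ednra was also lower in VAT than in SAT of obese mice (-0.64, adjusted p = 0.00094), lost with total counts only, and its diet response differed between tissues (-0.73, adjusted p = 0.0448, edgeR), which 5 of 17 alternatives kept. Pde5a, which degrades cyclic GMP, rose in obese SAT by 0.68 (adjusted p = 0.0153, edgeR), lost with total counts only and without lean mouse 3 or obese mouse 3 or 4. Npr1, the natriuretic peptide receptor, was higher in VAT of obese mice by 0.74 (adjusted p = 0.0441), which 11 of 17 alternatives kept, and Pde3a was higher in VAT of lean mice by 2.23 (adjusted p = 0.0313), kept in 9 of 14. With lean mouse 2 and obese mouse 1 both left out, the calls with diet in SAT of Synpo2, Myl6, Mrtfb, Steap4, Gja4, Cspg4, Notch2 and Hey1 were lost, as were that of Ednra with diet in VAT and, between tissues, those of Rbpj and Pde3a in lean mice and of Cox4i2, Ndufa4l2, Notch2, Hey1 and Npr1 in obese mice. This alternative also has fewer mice, and over all alternatives the values of Mrtfb (1.36 to 1.92) and Steap4 (-0.81 to -0.51) in SAT and of Ednra in VAT (-1.02 to -0.71) kept their direction.

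Markers of other cells were measured beside these genes. Of the 10 endothelial markers 9 were tested, and their summed level was 179 to 325 CPM in lean SAT, 261 to 370.3 CPM in obese SAT, 209 to 280.3 CPM in lean VAT and 231 to 329 CPM in obese VAT. The endothelial marker Vwf rose in obese SAT (1.63, adjusted p = 0.00016, edgeR) and was higher in VAT of lean mice (1.81). In VAT of obese mice Erg (-1.25) and Kdr (-0.43) were lower and Egfl7 (1.59) was higher, and Kdr and Egfl7 were called in 10 and 12 of 17 alternatives. The skeletal muscle markers, 15 genes of which Tnnt3 was at 0 throughout, summed to between 10.7 and 32.9 CPM in all libraries. Actn3 (4.26 and 3.63) and Pygm (1.04 and 0.63) were higher in VAT of lean and obese mice, and Tnnc2 was lower in VAT of lean mice (-1.09, adjusted p = 0.0430, edgeR, kept in 11 of 17 alternatives) and in obese SAT (-2.56, adjusted p = 4.80e-05, edgeR). Intestinal epithelium markers summed to 19.1 to 72.5 CPM in lean VAT and 18.7 to 30.8 CPM in the other groups, with Zg16 lower in obese VAT in 13 of 13 alternatives, Muc2 in 13 of 18 and Slc5a1 in 8 of 13. Exocrine pancreas markers reached up to 16.6 CPM in lean VAT and up to 7.05 CPM in obese VAT, against at most 0.821 CPM in SAT.

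Fibroblast and adipose progenitor markers summed to 7737 to 12687 CPM in SAT and 5345 to 7729 CPM in VAT. Of 9 tested, 2 were higher and 3 lower in VAT of lean mice, and 3 were higher and 3 lower in VAT of obese mice. Dpt (-1.75 and -0.84), Pi16 (-1.33 and -0.98) and Col1a1 (-0.87 and -0.53) were lower in both diets, Dcn (1.16 and 1.00) and Dpp4 (0.59 and 0.66) were higher in both, and Clec3b (0.90) was higher in obese mice. The lean call of Dpp4 held in 11 of 17 alternatives and the obese call of Col1a1 in 13 of 17. Macrophage markers summed to 1246 to 1727 CPM in lean and 1959 to 2897 CPM in obese SAT, and to 2162 to 2864 and 4497 to 6799 CPM in VAT. Lymphocyte markers reached 40.3 to 369 CPM in VAT against 8.10 to 17.0 CPM in SAT. Adipocyte markers were called lower in 3 of 10 genes in VAT of lean mice and 7 of 10 in VAT of obese mice, against 7.22% and 15.1% of all features, with Lep and Lpl among them in both diets. With the diet, Lpl (-0.63), Lipe (-0.70), Adipoq (-0.62) and Plin1 (-0.61) were lower in obese VAT and Lpl (-0.40) in obese SAT. Plin1 in VAT and Lpl in SAT were each called in only 10 of 18 alternatives, and Adipoq in VAT in 16 of 18. The part of adipocytes in the lower Steap4 and Ednra of obese mice was not tested. Other markers called beyond a log2 fold change of 1.5 between tissues were, higher in VAT, the mesothelial genes Upk3b, Wt1, Krt19, Lrrn4, Msln and Upk1b, the intestinal genes Epcam, Slc5a1, Zg16, Tubb3 and Chrm3, the pancreatic genes Pnlip and Cpa1, the macrophage gene Itgax and the lymphocyte genes Ms4a1, Cd79a, Cd79b, Cd2, Cd22 and Cd3e, and, lower in VAT, Ret and Krt20 (the latter kept in 5 of 17 alternatives), each in lean mice, obese mice or both. With the diet in VAT, Cd68, Itgax and Cd79b were higher in obese mice beyond that limit. The part of these other cells in the differences of Rgs5, Des and Lmod1 was not tested.

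Across the 16 libraries, after the group means were taken out, the members varied only partly together. As a description over libraries that share depth and scaling, the correlation of deviations was highest for Tagln and Myl9 (r = 0.78) and lowest for Acta2 and Des (r = -0.43), and that of Acta2 and Tagln was 0.42. The genes whose deviations were most like the mean of the 7 tested members were Gm9530 (r = 0.88), Snhg1 (r = 0.87), Hoxaas2, Rpl34, Slc29a3, Dkc1, Copz1, Sag, Gm52097 and Pola2 (r = 0.84). Of these, Snhg1 had a mean of 18.0 CPM and the other 9 had means between 0.569 and 4.38 CPM, a range in which few counts make up each value.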

How the data were processed

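RNA of 16 adipose tissue samples (8 mice, SAT and VAT of each) was sequenced as poly(A) directional libraries. Per the study's methods and processing notes, the authors used FastQC 0.11.9, Trim Galore 0.6.6, HISAT2 2.2.0 (GRCm39, RefSeq annotation), SAMtools 1.11 and HTSeq 0.13.5, and edgeR 3.34.0 for their tests. The deposited table holds raw counts per RefSeq transcript and deposited CPM values, which equal the count over the library total, scaled to CPM.

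Here the counts were summed per gene symbol (82.0% of rows and 84.8% of counts had one, from RefSeq names; other rows stayed alone). Features with a CPM above 1 in at least 3 libraries were tested with edgeR 4.0.16 (quasi-likelihood, TMM, R 4.3.3) and Benjamini-Hochberg adjustment at 0.05. Diets were compared within a tissue from 4 group means, and tissues and the interaction with the mouse as a block, since both tissues came from the same mouse. The correlation of deviations from group means was -0.00144 to 0.175 for the same mouse (median 0.0765, n = 8) and -0.155 to 0.117 for different mice (median -0.0373, n = 24). DESeq2 1.42.0, limma voom 3.58.1, other scalings and filters, single rows, blocks and leaving out each mouse were alternatives. Within-library ratios and shares were tested with exact two-sided permutation tests (scipy 1.17.1). The code was tested on simulated data.

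The members and lists were chosen with earlier results of these data known. Members were all named, list genes were named where called (at most the 5 with the smallest adjusted p per list and comparison), markers of other cells where called beyond a log2 fold change of 1.5, and the genes most like the members were the 10 with the highest correlation to their mean deviation. A few genes that these rules pick are not reported here.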

Additional observations from a re-analysis of the deposited data

Results flagged for a closer look

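Tagln in VAT of lean mouse 1 was at 12.7 CPM, far below the other lean VAT libraries (22.6 to 24.0 CPM), with a gap above Dixon's critical value at the 95% level for 4 samples. Of 28 groups of 4 libraries examined this was the 1 that stood out, and chance alone gives about 1 in 20. This library is also the shallowest, and its Tagln value rests on 19 counts.

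The diet response of the Acta2 row XM_006526606 differed between tissues by -1.06 on the log2 scale (VAT minus SAT, SE 0.26, adjusted p = 0.0302, edgeR). The call was lost with limma voom, with no replicate block, with total counts only and without any of lean mice 2, 3 and 4 and obese mice 3 and 4. The row was higher in obese SAT and did not pass the test with diet in VAT.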

How the results depend on the processing

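Of the calls on members, those of Rgs5 and Des between tissues held under every alternative run, with leave-one-out log2 fold changes from -1.30 to -0.97 for Rgs5 and 0.91 to 1.28 for Des in lean mice. The number of members called in VAT with diet was 1 in place of 0 with legacy=FALSE, limma voom and no filter, and leaving out 1 mouse each gave 0 to 1 in either tissue. Between tissues the count was 0 in both diets beyond a log2 fold change of 1.5. With total counts only it was 5 in obese mice, where 3893 of 12185 features were then called higher in VAT and 778 lower. Leaving out 1 mouse each gave 2 to 5 in lean and 3 to 4 in obese mice. The shares of all features called under the other alternatives are not given here.

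With replicate number as a block, 1 member (Acta2, -0.46) was called with diet in VAT, but across diets the numbers pair no animals. With no replicate block between tissues, where the pairing is by mouse, Lmod1 in lean mice was lost (0.75), Tagln in obese mice was called (0.67), and the Acta2 row XM_006526606 lost its calls in obese mice (-0.53) and for the interaction (-1.04). It changed no other call on members.

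Values near 0 changed sign. Myl9 was 0.12 with diet in SAT and -0.12 between tissues in obese mice on single rows, and the Acta2 row was 0.0094 with diet in VAT under limma voom. Leaving out 1 mouse each, Myl9 ran from -0.18 to 0.075 (diet, SAT), -0.29 to 0.045 (tissues, lean) and -0.036 to 0.36 (tissues, obese), Tagln from -0.31 to 0.14 (diet, SAT) and -0.022 to 0.39 (diet, VAT), Notch3 from -0.13 to 0.47 (diet, SAT) and the Acta2 row from -0.25 to 0.20 (diet, VAT). The cause was not tested. VAT of lean mouse 1, with 1256082 counts, limits the low members most.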
